A study of Canis lupus familiaris with 9 samples.

Results

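The genes described here encode surface proteins that hold cells to matrix or to each other: integrins, cadherins, protocadherins, nectins, cell adhesion molecules of the CADM family and neural cell adhesion molecules (NCAMs). They were chosen by symbol, as genes whose name starts with ITGA, ITGB, CDH and a number, PCDH, CADM, NECTIN or NCAM, leaving out integrin-binding proteins such as ITGB1BP1. The rule found 73 of the 28008 genes in the files. Of these, 47 had a value of at least 10 in 3 or more of the 9 libraries and were compared between groups: 21 of 25 integrins, 8 of 22 cadherins, 12 of 16 protocadherins, 3 of 4 nectins, 2 of 4 CADMs and 1 of 2 NCAMs. The level, but not the difference between groups, entered that rule. For 14 of the 47, however, no control reached 10, so they could be compared only because they were higher in lymphomas: NCAM1, NECTIN1, NECTIN2, NECTIN3, CDH2, CDH5, CDH11, CDH13, CDH17, ITGA8, PCDH7, PCDHB1, PCDHB4 and PCDHB15.

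RNA was sequenced from 3 samples of CD4+ T cells sorted from healthy hounds and from 6 CD4+ peripheral T cell lymphomas (PTCL), cancers of mature T cells in dogs. The controls were intact females aged 1 year. The Boxer lymphomas came from a castrated male aged 6 (number 1), a spayed female aged 8 (2) and a castrated male aged 6 years (3). The other-breed lymphomas came from a spayed Cavalier King Charles Spaniel aged 3 (1), a spayed Rhodesian Ridgeback aged 4 (2) and a castrated Collie aged 11 years (3). No treatment is given in the labels. Breed, age and neutering differ together with disease and cannot be told apart from it, and all controls but only 3 of 6 lymphomas are from females. The labels name sorting only for the controls, so whether the lymphomas were sorted is not known here. The other-breed lymphomas differ in breed, and Boxer lymphoma 2 differs from Boxer lymphomas 1 and 3 in sex and age. For the controls and for Boxer lymphomas 1 and 3 the labels do not say whether each is from its own dog. The p-values therefore cover only the variation among these libraries.

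The libraries held 11710623 to 18488468 reads. Of 9 tested T cell markers, 1 rose, 0 fell and 8 did not pass. CD3E was at 19718 to 21357 normalised reads in controls and 13794 to 22222 in lymphomas, and CD3G rose, from 9845 to 10791 to 12348 to 16954. CD5 (10272 to 10649 reads in controls, 265 to 4320 in lymphomas) and CD6 (6849 to 8636, 179 to 4336) were lower in every lymphoma without passing (limma adjusted p = 0.0591 and 0.107). Markers of other cell types differed between the groups. Of 13 tested monocyte and macrophage markers 12 rose, and of 16 fibroblast and stroma markers 8 rose. Of 12 endothelial markers, CDH5 among them, 5 rose, and of 11 dendritic cell markers, ITGAX and CADM1 among them, 6 rose. All 4 tested neutrophil markers rose, and 0 of 7 B cell markers did. The B cell marker MS4A1 was uneven, however. Other-breed lymphoma 1 held 5123 normalised reads of it and other-breed lymphoma 3 held 1535, while controls ranged from 209 to 366. The remaining lymphomas ranged from 121 to 302. The summed level of the 7 B cell markers was largest in the same libraries, 6234 and 2341, where controls had 1382 to 1598. CD79B was lower in both (56.5 and 31.8) than in controls (172 to 176). Over all tested genes 19.4% rose and 15.7% fell. In these bulk samples, fewer cells of a type and less RNA per cell cannot be told apart.

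Integrins are pairs of an alpha and a beta chain that bind matrix or surface ligands and signal inward after activation by talin and kindlin. T cells use the pairs ITGAL with ITGB2 and ITGA4 with ITGB1 or ITGB7 to leave the blood and enter tissue. Cadherins bind like to like in a calcium-dependent way and are tied to actin by catenins, while nectins are tied to it by afadin. Protocadherins and NCAMs are best known from neurons, where they mark cell identity and guide contacts.

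Values are normalised read counts, that is, the authors' reads divided by a size factor per library. Fold changes are differences of mean log2(value + 1), which understate the change of low genes, and adjusted p-values come from limma over all 15977 genes tested. In lymphomas, 17 of the 47 genes rose and 2 fell, where 19.4% and 15.7% of all tested genes did so (35.0% in either direction). In 14 genes every lymphoma lay above every control (18.5% of all tested genes), and in 4, ITGA1, ITGA7, ITGAE and ITGB8, every lymphoma lay below (17.2%). The median log2 fold change was 1.76 over the 47 genes and 0.05 over all tested genes. Because 14 genes had to be higher in lymphomas to be compared at all, these shares and medians are descriptions only. Without control 1, 2 or 3 the number of genes that rose was 9 each time, and it was 2 with age as a covariate (NCAM1 and PCDHGC5) and 28 without other-breed lymphomas 1 and 2.

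**Figure D1:**
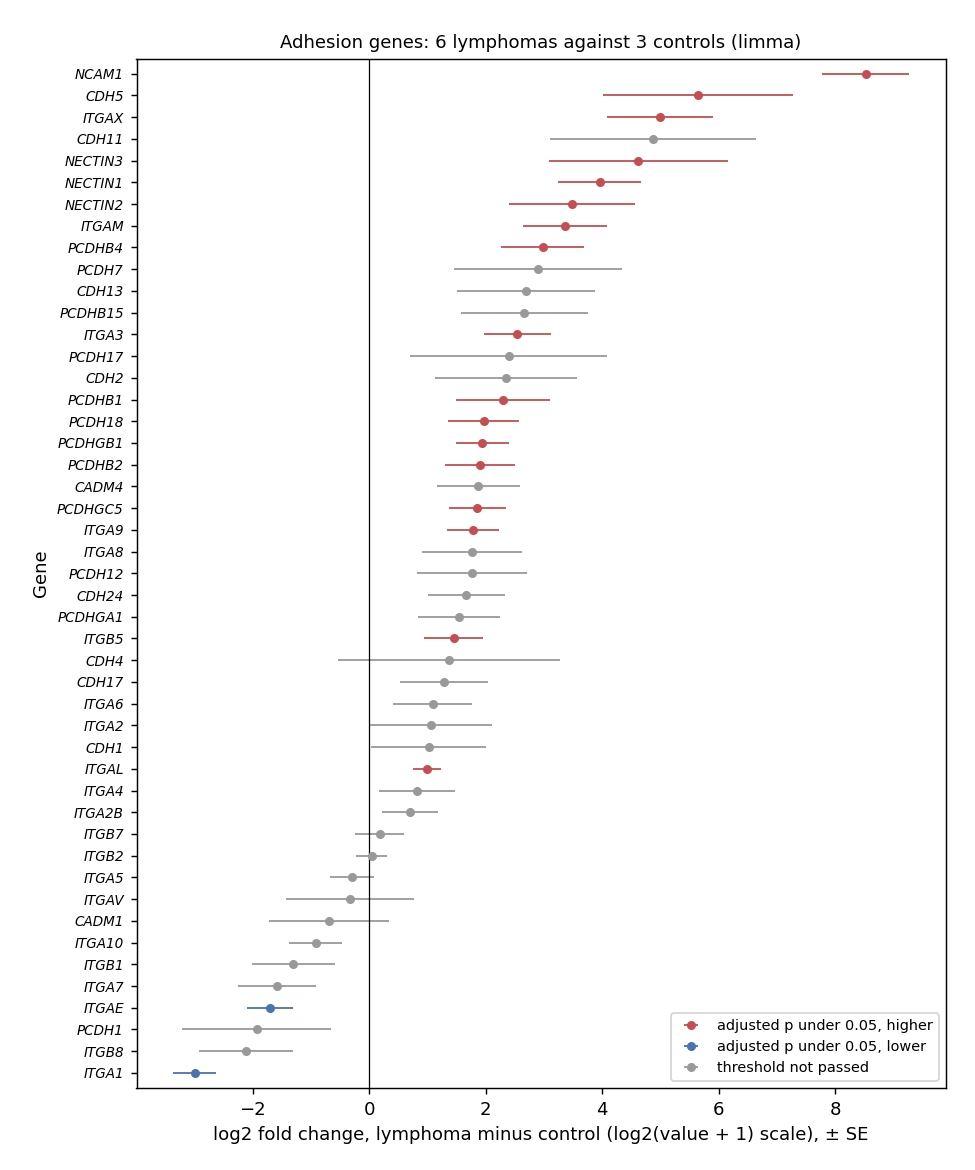
Log2 fold change of each of the 47 adhesion genes between 6 lymphomas and 3 controls (points, limma) with its standard error (bars). Red points rose and blue points fell at an adjusted p under 0.05; NCAM1, at 8.52, lies farthest to the right and ITGA1, at -3.0, farthest to the left.

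Among the leukocyte integrins, the lymphomas had more ITGAL, ITGAM and ITGAX, while their shared beta chain ITGB2 did not pass the test. ITGAL (ENSCAFG00000016603), the alpha chain that binds ICAM proteins on T cells, was at 2320, 2237 and 2559 reads in the controls. It was at 5548, 4186 and 7307 in Boxer lymphomas 1 to 3 and at 5261, 3271 and 3777 in other-breed lymphomas 1 to 3. Every lymphoma exceeded every control, and the log2 fold change was 0.99 ± 0.24 (SE, limma adjusted p = 0.0092). ITGB2 averaged 2951 ± 516 reads in controls (SD, n = 3) against 3130 ± 920 in lymphomas (n = 6), a log2 fold change of 0.04 ± 0.26 (limma adjusted p = 0.915).

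ITGAX and ITGAM, the alpha chains of dendritic and myeloid cells, rose far more from a low level. ITGAX was at 4.95 to 15.0 reads in controls, 858, 415 and 494 in the Boxer lymphomas and 33.0, 164 and 691 in the other-breed lymphomas (log2 fold change 5.0 ± 0.91, limma adjusted p = 0.00268). ITGAM was at 1.65 to 15.7 reads in controls and 36.0 to 150 in lymphomas, with a median of 98.5 (3.36 ± 0.72, limma adjusted p = 0.00576). Both genes separated the groups without overlap. Among lymphomas, other-breed lymphoma 1 had the lowest ITGAX, but Boxer lymphoma 2 had the lowest ITGAM (36.0, against 37.7 in other-breed lymphoma 1). The summed level of 15 monocyte and macrophage markers was 143 to 209 in controls, 6209 to 13014 in Boxer lymphomas, and 949, 3532 and 21420 in other-breed lymphomas 1 to 3. The markers FCER1G and VSIG4 were at 0 in every control. The monocyte and macrophage sum, like ITGAX, was lowest in other-breed lymphoma 1. ITGAM did not follow the sum in this way: Boxer lymphoma 2 had a sum of 6209, and other-breed lymphoma 2, at 3532, had 136 reads of ITGAM. LYZ made up 57.4% of the sum in controls, and was at 616 reads in other-breed lymphoma 1 and 16931 in other-breed lymphoma 3. The summed level of 9 dendritic cell markers, ITGAX and CADM1 left out, was 337 to 576 in controls and 446 to 1689 in lymphomas. For 6 neutrophil markers it was 17.3 to 34.3 in controls and 104 to 412 in lymphomas. The part of these cells in the 2 integrin results was not tested. With age as a covariate ITGAL, ITGAM and ITGAX did not pass (limma adjusted p = 0.0701, 0.122 and 0.14), and the log2 fold change of ITGAX was 2.66.

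Of the chains of the gut-homing and tissue-retention integrins, ITGAE fell, and ITGA4 and ITGB7 did not pass. ITGAE, the alpha chain that pairs with ITGB7 and binds E-cadherin, was at 1230, 831 and 782 reads in controls, 251, 211 and 207 in the Boxer lymphomas and 771, 219 and 282 in the other-breed lymphomas. All lymphomas were lower than all controls, with other-breed lymphoma 1 close to control 3 (log2 fold change -1.70 ± 0.40, limma adjusted p = 0.00859). The call ended with age as a covariate (-1.13, limma adjusted p = 0.242) and when only other-breed lymphomas were set against the controls (-1.35, limma adjusted p = 0.0639). ITGB7 averaged 2305 ± 447 reads in controls against 2883 ± 1269 in lymphomas (0.18 ± 0.42, limma adjusted p = 0.756).

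ITGA4, whose product pairs with ITGB1 or ITGB7 and binds VCAM1 and MADCAM1, was uneven among the lymphomas. It was at 14864, 11903 and 10419 reads in controls, 37503, 38463 and 3901 in the Boxer lymphomas, and 36880, 30321 and 16400 in the other-breed lymphomas. Thus 5 of 6 lymphomas lay above all controls and Boxer lymphoma 3 lay below them. The log2 fold change was 0.82 ± 0.65 (limma adjusted p = 0.346), and without Boxer lymphoma 3 the log2 fold change of ITGA4 was 1.32 and passed (limma adjusted p = 0.0109). Leaving out the only lymphoma below the controls favoured a higher call, so that fit is a description only.

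Of the beta1 chain and its partners, ITGA1 fell and ITGA3 and ITGA9 rose. ITGA1, which binds collagen with ITGB1, was at 2490, 2450 and 2402 reads in controls. It was at 212, 408 and 314 in the Boxer lymphomas and at 300.1, 157 and 626 in the other-breed lymphomas. The groups were far apart, and the log2 fold change was -3.0 ± 0.36 (limma adjusted p = 3.14e-04). ITGA1 passed in all 23 alternatives run, with log2 fold changes from -4.03 to -2.76. ITGA2, another collagen-binding chain, lies beside ITGA1 in RefSeq's gene order, with 1 protein-coding gene between them. It was at 24.6 to 49.5 reads in controls and 21.3 to 126 in 5 lymphomas, but at 949 in other-breed lymphoma 3, and did not pass (1.06 ± 1.05, limma adjusted p = 0.452).

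ITGA3, a laminin-binding chain, was at 13.6 to 32.4 reads in controls, 49.3, 157 and 56.2 in the Boxer lymphomas and 135, 136 and 274 in the other-breed lymphomas. The groups did not overlap (log2 fold change 2.54 ± 0.58, limma adjusted p = 0.00755). ITGA9, which binds tenascin and VCAM1, rose from 33.9 ± 3.57 to 132 ± 64.4 reads (1.78 ± 0.45, limma adjusted p = 0.0119), again with every lymphoma above every control. ITGA9 did not pass when only other-breed lymphomas were set against the controls (1.36, limma adjusted p = 0.0578), and with age neither passed (0.21 for ITGA3 and 0.248 for ITGA9).

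ITGB1, the beta chain shared by all of these, was at 4710, 3390 and 3011 reads in controls, 908, 5710 and 1269 in the Boxer lymphomas and 328, 1645 and 2889 in the other-breed lymphomas. The 5 lymphomas other than Boxer lymphoma 2 lay below all controls and Boxer lymphoma 2 above them (-1.30 ± 0.71, limma adjusted p = 0.173). Without Boxer lymphoma 2 the log2 fold change of ITGB1 was -1.69 and passed (limma adjusted p = 0.0496), as it did with age as a covariate (-3.23, 0.0294). Leaving out the only lymphoma above the controls favoured a lower call, so the fit without Boxer lymphoma 2 is a description only. ITGA6, another laminin-binding chain, was at 606 to 839 reads in controls, 2569, 5400 and 1523 in the Boxer lymphomas and 1279, 311 and 1308 in the other-breed lymphomas (1.09 ± 0.68, limma adjusted p = 0.231). Other-breed lymphoma 2 was the only lymphoma below the controls for ITGA6, and without it the gene passed (1.54, limma adjusted p = 0.0237). Leaving that library out favoured a higher call, so this too is a description only. ITGA5, the fibronectin receptor chain, averaged 4004 ± 1066 reads in controls against 3437 ± 1323 in lymphomas and did not pass (-0.30 ± 0.38, limma adjusted p = 0.557). ITGA7 was lower in every lymphoma, at 5.52 to 54.4 reads against 61.4 to 92.6, without passing (-1.58 ± 0.67, limma adjusted p = 0.0894), and ITGA8 (1.77 ± 0.87) and ITGA10 (-0.92 ± 0.46) did not pass either (limma adjusted p = 0.135 and 0.143).

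In the alphaV family only ITGB5 passed. This beta chain, which pairs with ITGAV to bind vitronectin, ranged from 31.4 to 49.5 reads in controls and from 36.5 to 181 in lymphomas (log2 fold change 1.45 ± 0.51, limma adjusted p = 0.0473). It lost its call in every fit that left out 1 control and in 5 of the 6 that left out 1 lymphoma, and with age ITGB5 was at 0.32 (limma adjusted p = 0.791). ITGAV was at 623 to 818 reads in controls, 1595, 567 and 1138 in the Boxer lymphomas and 24.7, 849 and 1335 in the other-breed lymphomas (-0.33 ± 1.1, limma adjusted p = 0.834). The sign of that value rests on other-breed lymphoma 1, without which it was 0.56 (limma adjusted p = 0.185). ITGB8, which with ITGAV activates latent TGF-beta, was lower in every lymphoma, at 1.58 to 40.3 reads against 59.3 to 95.5 (-2.12 ± 0.81, limma adjusted p = 0.0648). ITGB8 passed in 8 of 22 alternatives, among them those without other-breed lymphoma 2 (-1.58, limma adjusted p = 0.0357) or 3 (-2.38, 0.0464), with age (-4.12, 0.0254) and with sex (-2.83, 0.038). ITGA2B, the platelet chain, ranged from 17.6 to 30.5 reads in controls and from 21.8 to 84.4 in lymphomas (0.70 ± 0.48, limma adjusted p = 0.273). ITGB3 and ITGB4 were not analysed here.

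**Figure D2:**
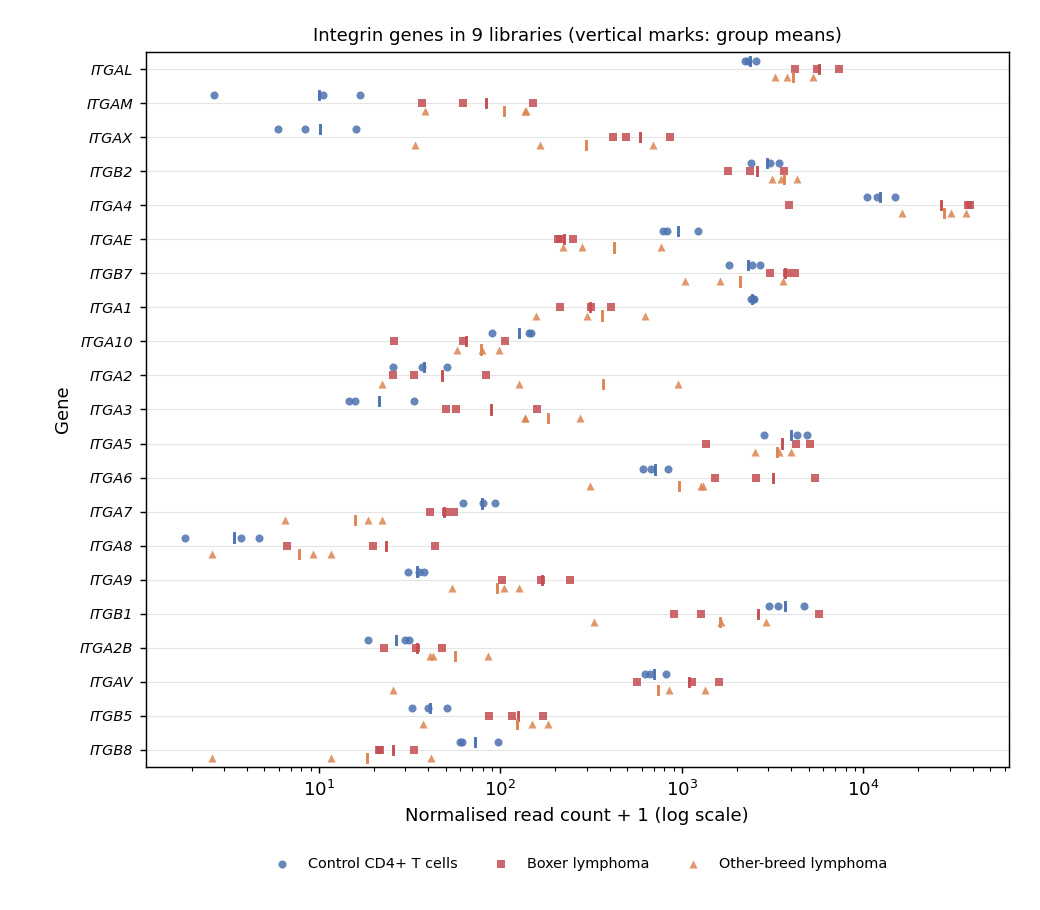
Normalised read count plus 1 (log scale) of the 21 compared integrin genes in each of the 9 libraries, by group, with vertical marks at the 3 group means. ITGA1 is at 157 to 626 in lymphomas and 2402 to 2490 in controls, and ITGA4, ITGAE and ITGAV each have 1 lymphoma far from the other 5.

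NCAM1 had the largest fold change of the 47 genes. It encodes a neural cell adhesion molecule that is also known as CD56 and is found on neurons and, in humans, on natural killer cells. The controls held 2.73, 0 and 0 reads (2 raw reads in all). The lymphomas held 398, 549 and 363 in the Boxer group and 1551, 1577 and 176 in the other-breed group. Every lymphoma lay above every control, with other-breed lymphomas 1 and 2 highest. The log2 fold change was 8.52 ± 0.75 (limma adjusted p = 5.74e-05), and the ratio of reads pooled over each group was 1180, with a 95% interval of 326 to 9747 (exact binomial, counting error only). NCAM1 passed in all 23 alternatives, with log2 fold changes from 6.64 to 10.56.

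Markers of nerve tissue and of natural killer cells did not all follow NCAM1. The summed level of 10 Schwann cell and neuron markers was 3.70 to 24.6 in controls, 308, 290 and 469 in the Boxer lymphomas and 57.7, 798 and 119 in the other-breed lymphomas. NGFR and TUBB3 were at 0 in every control, and in lymphomas SOX10 was at 0 to 4.16 reads. Other-breed lymphoma 1 thus had the lowest sum among lymphomas and the second highest NCAM1. The order of these sums rests largely on ELAVL4. That gene was at 170, 232 and 299 reads in the Boxer lymphomas and 1.18, 770 and 15.9 in the other-breed lymphomas. The summed level of 8 natural killer and cytotoxic markers was 580 to 773 in controls and 212 to 478 in lymphomas other than Boxer lymphoma 2, at 6312, of which KLRB1 gave 6050. NCR3 made up 82.1% of that sum in controls, and the members moved in different directions. NCR3 fell from 437 to 717 reads in controls to 55.2 to 112 in lymphomas, and the perforin gene PRF1 rose from 9.26 to 21.8 reads to 50.2 to 121, while the other 5 tested markers did not pass. The part of nerve and natural killer cells in the NCAM1 values was not tested. The natural killer receptor NCR1 was at 0 to 0.926 reads in controls and 3.40 to 13.8 in lymphomas. NCAM2, the second NCAM gene, did not reach 10 in 3 libraries, at 0.926 to 8.26 reads in controls and 1.70 to 20.2 in lymphomas.

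Of 9 tested partners of NCAM proteins, 3 rose and 0 fell, with a median log2 fold change of 2.31. The shares over all tested genes were 19.4% and 15.7%. ALCAM rose from 28.8 ± 5.05 to 398 ± 474 reads (3.03 ± 0.80, limma adjusted p = 0.0154), and GFRA1, a GDNF co-receptor that works with NCAM1, from 0.455 ± 0.788 to 37.8 ± 32.5. MCAM had 0 reads in every control and 0.789 to 455 in lymphomas, and the list's median was also 2.31 with its control level set at 3 reads over the group. ST8SIA4, which adds polysialic acid to NCAM1, averaged 876 ± 66.2 reads in controls against 940 ± 418 in lymphomas (-0.02 ± 0.34, limma adjusted p = 0.976).

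The 3 nectins that could be compared, NECTIN1, NECTIN2 and NECTIN3, were called higher, as were 19.4% of all tested genes. All 3 reached the limit of 10 reads through lymphomas only, which fixed their direction, so their count is no result about the family. Nectins bind each other across cells, and some are ligands of the lymphocyte receptors CD96, CD226 and TIGIT. NECTIN1 was at 0 to 1.65 reads in controls, 45.9, 19.0 and 27.1 in the Boxer lymphomas and 14.1, 14.2 and 90.2 in the other-breed lymphomas (log2 fold change 3.96 ± 0.71, limma adjusted p = 0.00252). The controls held 3 raw reads in all, and the pooled ratio was 34.7 with a 95% interval of 11.7 to 169. NECTIN2 was at 0.826 to 5.46 reads in controls, 46.7, 63.5 and 97.9 in the Boxer lymphomas and 2.35, 15.8 and 128 in the other-breed lymphomas (3.48 ± 1.09, limma adjusted p = 0.0308). NECTIN3 was at 0, 0 and 3.70 reads in controls, 45.9, 64.5 and 38.5 in the Boxer lymphomas and 0, 93.1 and 433 in the other-breed lymphomas (4.62 ± 1.54, limma adjusted p = 0.0396).

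Only NECTIN1 separated the groups without overlap, and other-breed lymphoma 1 was at control level for NECTIN2 and NECTIN3. The calls of NECTIN2 and NECTIN3 ended when any 1 control was left out, with log2 fold changes of 3.07 to 3.98 for NECTIN2 (limma adjusted p = 0.055 to 0.123) and 4.25 to 5.37 for NECTIN3 (0.064 to 0.133). NECTIN2 also lost its call without Boxer lymphoma 2 or 3 or other-breed lymphoma 3, and NECTIN3 without any lymphoma other than other-breed lymphoma 1. With age as a covariate none of the 3 passed, at log2 fold changes of 2.42 for NECTIN1, 0.47 for NECTIN2 and 0.49 for NECTIN3 (limma adjusted p = 0.117, 0.833 and 0.882). With sex, NECTIN2 (2.25) and NECTIN3 (3.45) did not pass (limma adjusted p = 0.138 and 0.159). NECTIN4 was at 0 to 7.29 reads and not compared.

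The afadin gene AFDN, whose product anchors nectins to actin, rose from 13.6 ± 8.45 to 2121 ± 897 reads (7.22 ± 0.55, limma adjusted p = 2.77e-05). Its lymphoma values were 2693, 1996 and 598 in the Boxer group and 2972, 2785 and 1684 in the other-breed group, all far above the controls. Of 6 tested receptors and ligands of nectins and CADMs, 3 rose and 1 fell (median log2 fold change 1.70). Among all tested genes 19.4% rose and 15.7% fell. CD96 rose from 327 ± 20.3 to 3957 ± 2689 reads (3.39 ± 0.40), and the poliovirus receptor gene PVR, a relative of the nectins, from 7.70 ± 8.76 to 57.6 ± 20.8 (3.16 ± 0.65). The linker gene EPB41L3 rose by 3.29 ± 0.86, and the inhibitory receptor TIGIT fell from 1080 ± 356 to 149 ± 245 reads (-3.98 ± 0.93, limma adjusted p = 0.00882). CD226 (0.23 ± 0.29) and CRTAM, a receptor for CADM1 (-1.11 ± 0.63), did not pass (limma adjusted p = 0.569 and 0.188).

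The CADM genes did not pass. CADM1, an immunoglobulin-type adhesion molecule used as a marker of some T cell leukaemias, was at 34.3 to 61.4 reads in controls, 27.2, 33.2 and 191 in the Boxer lymphomas and 3.53, 11.0 and 101 in the other-breed lymphomas. It lay above the controls in 2 lymphomas and below them in 4 (log2 fold change -0.69 ± 1.03, limma adjusted p = 0.624). CADM4 was at 5.56 to 12.4 reads in controls and 15.9 to 141 in lymphomas, with no overlap, but its adjusted p was 0.0648 (1.87 ± 0.72). CADM2 was at 0 to 2.55 reads and CADM3 at 0 to 12.3, and neither was compared.

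Of the 8 compared cadherins, CDH5 rose and 7 did not pass in the main limma fit. The method mattered here: edgeR also called CDH11 and CDH13 higher (edgeR adjusted p = 0.0255 and 0.0432). DESeq2 also called CDH1, CDH4, CDH11, CDH13 and CDH24 higher. CDH11 passed in 8 of 22 alternatives in all. CDH5, the cadherin of endothelial junctions, was at 0, 0.826 and 0 reads in controls, 98.5, 185 and 372 in the Boxer lymphomas, and 1.18, 6.31 and 495 in the other-breed lymphomas. The log2 fold change was 5.65 ± 1.63 (limma adjusted p = 0.0224), and the call ended without control 1, 2 or 3, with log2 fold changes of 5.51 to 5.94 for CDH5 (limma adjusted p = 0.0624 to 0.077). With age as a covariate the log2 fold change of CDH5 was 0.64 (limma adjusted p = 0.822), and with sex it was 3.55 (0.0938). With 1 raw read in the controls, the pooled ratio of CDH5 was 553, with a 95% counting interval of 99.0 to 21853. CDH11, a cadherin of fibroblasts and bone-forming cells, was at 0 to 1.36 reads in controls, 150, 80.6 and 591 in the Boxer lymphomas and 2.35, 0.789 and 308 in the other-breed lymphomas (4.88 ± 1.77, limma adjusted p = 0.0539), and its pooled ratio was 271 (74.9 to 2243, 2 raw control reads). CDH13 (2.48 to 2.78 reads in controls) had the same split, at 31.4, 31.3 and 69.8 in the Boxer lymphomas and 4.71, 1.58 and 159 in the other-breed lymphomas (2.69 ± 1.18, limma adjusted p = 0.0995). N-cadherin, CDH2, was low, between 0 and 2.73 reads in controls and between 0 and 45.8 in lymphomas (2.35 ± 1.22, limma adjusted p = 0.157), with a pooled ratio of 22 (5.92 to 184, 2 raw control reads). CDH5 and CDH11 are near neighbours in RefSeq's gene order, and CDH8, which follows CDH11, had no read in any library.

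Other-breed lymphomas 1 and 2, which had the lowest CDH5, CDH11 and CDH2 of the 6 lymphomas, also had the lowest marker sums for endothelium and for stroma among the lymphomas. The summed level of 11 endothelial markers, CDH5 left out, was 671 to 1032 in controls, 2156, 4115 and 5709 in the Boxer lymphomas and 1288, 456 and 9047 in the other-breed lymphomas. The endothelial markers VWF and PLVAP were at 4.71 and 1.18 reads in other-breed lymphoma 1 and 14.2 and 3.94 in other-breed lymphoma 2. Not all endothelial markers were low there: in other-breed lymphoma 1 ENG was at 753 reads, against 127 to 163 in controls and 225 to 582 in the Boxer lymphomas, and EGFL7 was at 354, against 158 to 203 and 226 to 487. KDR made up 48.5% of the endothelial sum in controls. The summed level of 16 fibroblast and stroma markers was 2831 to 3800 in controls, 4814, 5002 and 16073 in the Boxer lymphomas and 3544, 1554 and 13654 in the other-breed lymphomas. THY1 made up 73.3% and COL5A1 24.8% of that sum in controls, and LUM and MMP2 were at 0 in every control. In other-breed lymphoma 1 THY1 alone was at 3322 reads, and in other-breed lymphoma 2 COL5A1 was at 1150. Both genes were high in the sorted controls as well, so in these 2 lymphomas the sum does not show the level of stroma. COL1A2, a collagen chain of fibroblasts, was at 5.46 to 12.4 reads in controls, 634 to 4456 in 4 lymphomas, and 54.1 and 22.1 in other-breed lymphomas 1 and 2. The part of these cells in the cadherin values was not tested. Without other-breed lymphomas 1 and 2 CDH2 (3.50), CDH5 (7.63), CDH11 (7.04) and CDH13 (4.00) all passed by limma. These libraries held the lowest lymphoma values of each of these genes, so leaving them out favoured a higher call. That fit therefore says nothing about the cells in the samples.

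E-cadherin, CDH1, which holds epithelial cells together and binds ITGAE on T cells, had lymphoma values on both sides of the controls. It was at 356, 497 and 595 reads in controls, 3894, 5494 and 361 in the Boxer lymphomas and 301, 221 and 1493 in the other-breed lymphomas. Thus 3 lymphomas lay above all controls, 2 below and 1 among them (log2 fold change 1.02 ± 0.99, limma adjusted p = 0.446). The epithelial markers EPCAM and ESRP1 were at 384 and 85.8 reads in Boxer lymphoma 1 and 156 and 71.1 in Boxer lymphoma 2. EPCAM and ESRP1 were at 500.0 and 755 in other-breed lymphoma 2, which had the lowest CDH1, and at 1006 and 1842 in other-breed lymphoma 3. They were at 15.6 and 30.2 in Boxer lymphoma 3 and 2.35 each in other-breed lymphoma 1. The controls were at 17.6 to 45.0 for EPCAM and 0 to 28.7 for ESRP1. KRT5 was at 0 to 5.21 reads, KRT14 at 0 to 1.36 and CLDN4 at 0 to 8.50 over all libraries, and KRT19 reached 30.6 in Boxer lymphoma 1. The part of epithelial cells in the CDH1 values was not tested.

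CDH24 ranged from 6.82 to 32.2 reads in controls and from 23.5 to 154 in lymphomas (1.67 ± 0.66, limma adjusted p = 0.0728). CDH4, the retinal cadherin, was at 5.78 to 20.4 reads in controls, at 156, 288 and 530 in Boxer lymphomas 2 and 3 and other-breed lymphoma 1, and at 0 to 12.7 in the other 3 (1.37 ± 1.90, limma adjusted p = 0.596). CDH17 averaged 6.88 ± 2.39 reads in controls against 23.2 ± 17.9 in lymphomas (1.28 ± 0.76, limma adjusted p = 0.207). The other 14 cadherins were below the limit.

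Of 12 tested catenins and cadherin partners 6 rose and 2 fell, with a median log2 fold change of 1.17. Among all tested genes 19.4% rose and 15.7% fell. Plakoglobin, JUP, rose from 45.1 ± 19.7 to 801 ± 605 reads (3.80 ± 0.67, limma adjusted p = 0.00222) and CTNNAL1 from 3.18 to 163 (5.5 ± 1.22). Beta-catenin, CTNNB1, rose by 0.55 ± 0.19 (limma adjusted p = 0.048), from 3495 ± 218 to 5214 ± 1099 reads. The plakophilin genes PKP3 (-1.75 ± 0.33) and PKP4 (-1.67 ± 0.56) fell. CTNND1, which encodes p120-catenin, averaged 1421 reads in controls against 1486 in lymphomas (0.05 ± 0.16, limma adjusted p = 0.831).

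**Figure D3:**
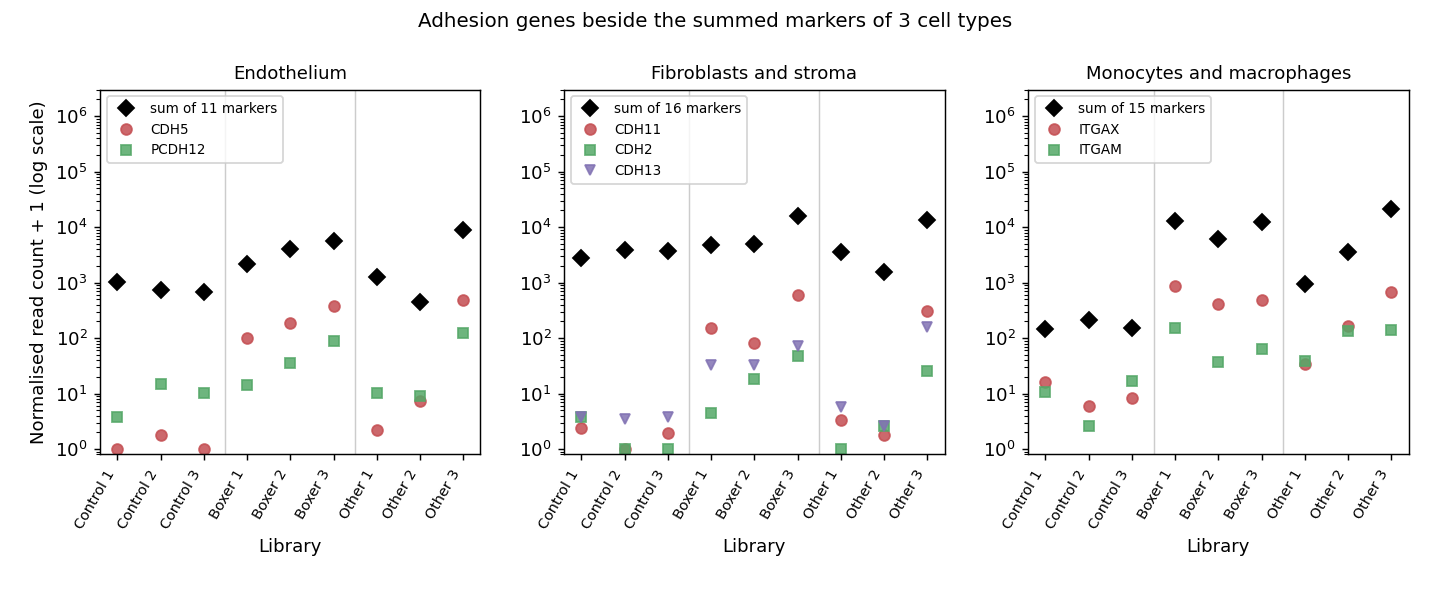
Normalised read count plus 1 (log scale) of adhesion genes in each library, beside the summed level of markers of endothelium, of fibroblasts and stroma and of monocytes and macrophages (black diamonds; adhesion genes left out of the sums). CDH5 is at 98.5 to 495 in 4 lymphomas but at 1.18 and 6.31 in other-breed lymphomas 1 and 2. The stroma sum is mostly THY1 and COL5A1 in controls and in these 2 lymphomas.

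Of the 12 compared protocadherins 6 rose and 0 fell, where 19.4% and 15.7% of all tested genes did so. For 4 of the 12, PCDH7, PCDHB1, PCDHB4 and PCDHB15, only lymphomas reached the read limit, which fixed their direction. PCDHB1 and PCDHB4 are among the 6 calls, so the count is a description only. PCDH18 was at 1020, 1132 and 984 reads in controls. It was at 1447, 9718 and 1434 in the Boxer lymphomas and 7931, 4648 and 6183 in the other-breed lymphomas, above the controls in all 6 (log2 fold change 1.97 ± 0.61, limma adjusted p = 0.0291). Boxer lymphomas 1 and 3 were the closest to the controls. The call ended in the fit with the Boxer lymphomas only (1.38, limma adjusted p = 0.142), without any 1 control (limma adjusted p = 0.0823 to 0.0926) and without other-breed lymphoma 3 (0.0506). PCDH18 did not pass with age either (1.67, limma adjusted p = 0.284).

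The clustered protocadherins, whose genes lie in arrays and carry similar coding sequence, gave 5 of the 6 calls. PCDHGC5 was at 66.0 to 66.9 reads in controls and at 454, 93.9 and 138 in the Boxer lymphomas and 423, 318 and 261 in the other-breed lymphomas (1.86 ± 0.49, limma adjusted p = 0.0149). It did not pass without any 1 control (limma adjusted p = 0.0524 to 0.0564) or with the Boxer lymphomas only (1.43, limma adjusted p = 0.0803). PCDHGB1 rose from 19.7 ± 5.43 to 83.8 ± 41.4 reads (1.94 ± 0.46, limma adjusted p = 0.00887) and PCDHB4 from 6.25 ± 4.65 to 51.1 ± 29.6 (2.98 ± 0.71, limma adjusted p = 0.00964), both with every lymphoma above every control. PCDHB2 (1.90 ± 0.59, limma adjusted p = 0.0311) and PCDHB1 (2.30 ± 0.81, 0.0485) rose as well, and both lost their calls when any 1 control was left out. With age as a covariate PCDHB1 (0.90), PCDHB2 (1.24), PCDHB4 (2.51) and PCDHGB1 (2.11) did not pass (limma adjusted p = 0.644, 0.401, 0.172 and 0.0882). PCDHGA1 (1.55 ± 0.71) and PCDHB15 (2.66 ± 1.09) did not pass (limma adjusted p = 0.113 and 0.0817), and the pooled ratio of PCDHB15 was 21.0 (95% counting interval 5.65 to 176, 2 raw control reads). Genes of the gamma array share their last exons and the beta genes resemble each other, so reads may have been split or dropped among them and each value is uncertain in that respect.

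PCDH17 was at 1.36, 67.7 and 1.85 reads in controls and 0 to 183 in lymphomas, so the groups overlapped and control 2 stood apart from the other controls (2.39 ± 1.69, limma adjusted p = 0.288). PCDH1, PCDH7 and PCDH12 each had their lowest lymphoma values in other-breed lymphomas 1 and 2 and did not pass (log2 fold changes -1.93, 2.89 and 1.76, limma adjusted p = 0.259, 0.141 and 0.166). The endothelial protocadherin gene PCDH12 was at 9.42 and 7.89 reads in these 2 libraries and 13.6 to 121 in the other 4.

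**Figure D4:**
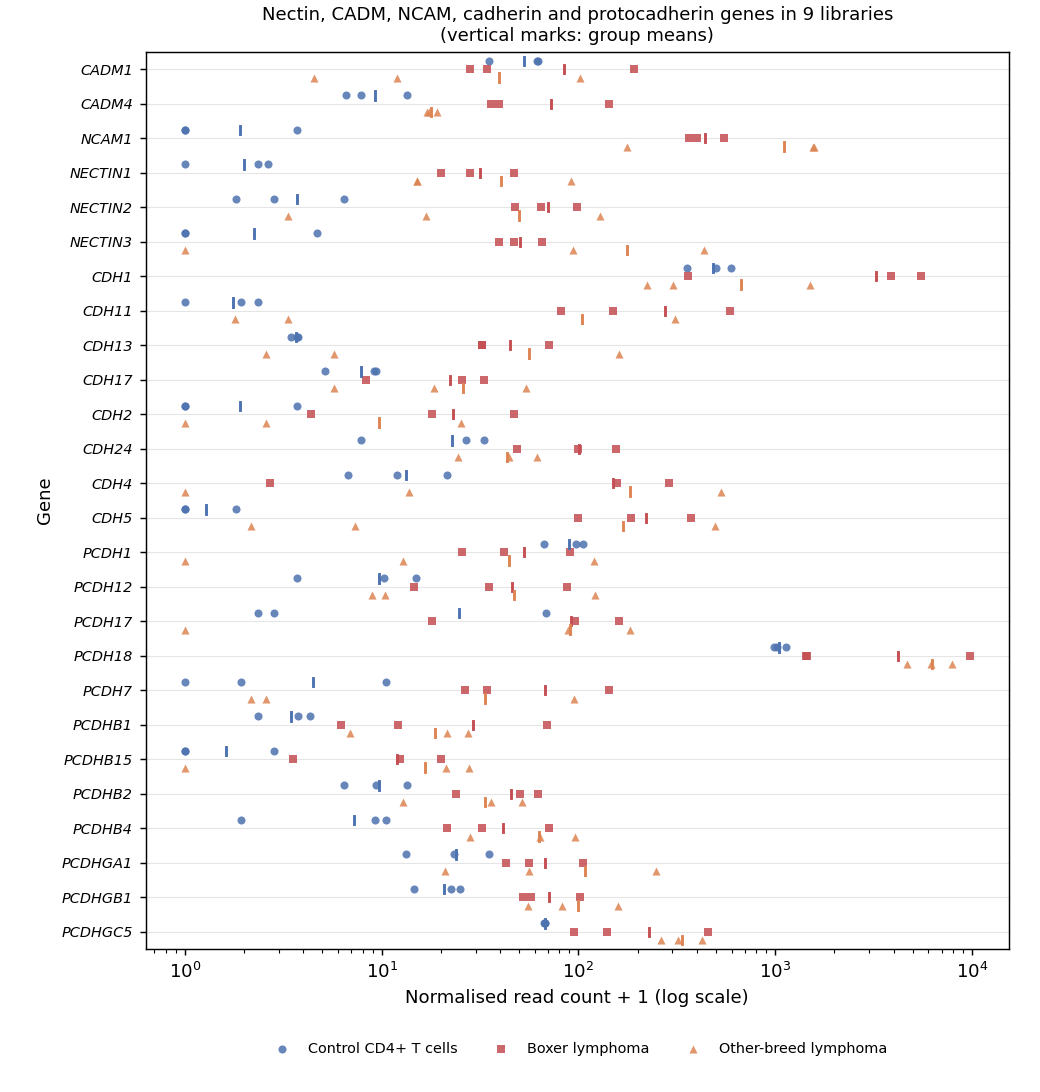
Normalised read count plus 1 (log scale) of the 26 compared genes outside the integrins in each of the 9 libraries, by group, with vertical marks at the 3 group means. NCAM1 and NECTIN1 are separated between controls and lymphomas, while CDH1, CADM1 and CDH4 spread to both sides of the controls.

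The genes that activate integrins and tie them to actin numbered 34 tested, of which 3 rose and 4 fell (median log2 fold change -0.02). The shares over all tested genes were 19.4% and 15.7%. RASGRP2, an activator of the switch protein RAP1 that opens integrins, fell from 5905 ± 1127 to 1824 ± 702 reads (-1.79 ± 0.36, limma adjusted p = 0.00412). The kinase gene STK4, which works downstream of RAP1, fell by 0.73 ± 0.17, RAPGEF1 by 0.96 ± 0.26 and the adaptor gene FYB by 0.61 ± 0.21. The kinase gene SRC rose from 19.6 ± 13.1 to 159 ± 94.9 reads (2.84 ± 0.74), BCAR1 by 0.72 ± 0.25 and FERMT1, a kindlin of epithelia, by 2.23 ± 0.78. FERMT1 was low and overlapped between groups, at 0 to 5.46 reads in controls and 5.10 to 27.5 in lymphomas (limma adjusted p = 0.0487). Talin, TLN1 (-0.46 ± 0.26), and the leukocyte kindlin FERMT3 (-0.62 ± 0.34) did not pass (limma adjusted p = 0.187 and 0.171).

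Of 15 tested integrin ligands 6 rose and 1 fell (median log2 fold change 3.79), where 19.4% and 15.7% of all tested genes did so. VCAM1, which ITGA4 binds, rose from 5.92 ± 1.97 to 1009 ± 1075 reads (6.15 ± 1.11, limma adjusted p = 0.00248). Its lymphoma values were 419 to 2659 except in other-breed lymphomas 1 and 2, at 64.7 and 100.2. The basement membrane gene NID1 (0.617 ± 1.07 to 221 ± 244 reads), MFGE8 (4.25 ± 1.14) and fibronectin FN1 (4.37 ± 1.36) rose, as did TNC and ICAM1, and ICAM2, a ligand of ITGAL, fell from 1276 ± 135 to 666 ± 154 reads (-0.97 ± 0.22). The part of stromal cells, whose marker sums are given above, in the ligand values was not tested.

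The second comparison set the 3 Boxer lymphomas against the 3 other-breed lymphomas, without the controls. By limma 0 of the 47 adhesion genes and 0 of 15112 genes passed (0.0%). At an unadjusted p under 0.05 there were 3 adhesion genes and 753 genes in all, edgeR passed 0 genes, and DESeq2 passed 102, none of them an adhesion gene. The 3 genes were ITGA6 (log2 difference, Boxer minus other, 1.78 ± 0.67), ITGA7 (1.79 ± 0.69) and CADM4 (1.72 ± 0.70), each with a limma adjusted p of 0.881. They were also the only ones of the 47 whose groups did not overlap, all with Boxer lymphomas higher (4.99% of all tested genes). No adhesion gene had all Boxer lymphomas lower (5.7%).

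ITGA6 was at 3164 ± 2006 reads in Boxer and 966 ± 567 in other-breed lymphomas, ITGA7 at 47.7 ± 7.35 and 14.8 ± 8.23, and CADM4 at 71.5 ± 60.4 and 16.8 ± 1.15. Larger differences had larger errors: CDH11 was at 274 ± 277 and 104 ± 177 reads (3.98 ± 1.94), CDH5 at 218 ± 140 and 167 ± 283 (3.26 ± 1.89) and CDH1 at 3250 ± 2626 and 672 ± 713 (2.09 ± 1.15), with limma adjusted p of 0.881 each. NCAM1 was lower in the Boxer group on average, at 437 ± 98.7 against 1102 ± 802 reads (-0.81 ± 0.83, limma adjusted p = 0.905). Other-breed lymphoma 3 was on the far side of the Boxer values for CDH5 and NCAM1, so neither gene split by breed group.

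Of the 26 genes below the limit, 3 had no read in any library: ITGBL1, CDH8 and CDH15. Just inside the limit lay ITGA8, whose third-highest value was 10.6 reads, and CDH2, at 17.1. Just outside lay ITGA11 and CDH3, both at 7.43, and NCAM2, at 5.69.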

How the data were processed

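The deposited values, of the unit signal, are reads per gene that the authors divided by a size factor for each library. TopHat2, HTSeq, DESeq2 and CanFam3.1 are named in the submitters' processing notes, and tool versions and strand are not given in the sources used here. Whole reads were recovered from 100% of the values (tolerance 0.01 reads), on which edgeR called 5390 and DESeq2 6750 genes between lymphomas and controls. Samples were grouped by their labels. The main test was limma 3.58.1 (R 4.3.3, trended variance, Benjamini-Hochberg adjustment) on log2(value + 1) for genes with at least 10 in 3 or more libraries, lymphoma against control over all 9 libraries and Boxer against other-breed over the 6 lymphomas. EdgeR 4.0.16 and DESeq2 1.42.0 on the recovered reads, other scalings, filters and pseudocounts, a replicate block, age, sex and left-out libraries were alternatives. The tests were run on simulated data first. Full statistics were planned for up to 14 genes per direction by p, 20 key genes and up to 4 genes per direction of each pathway list, and other genes with full statistics were chosen after their values were seen. Members and lists were chosen with earlier results of these data known. Gene order came from RefSeq (UU_Cfam_GSD_1.0), used only for neighbours, with 67 of 73 symbols matched. ITGB3 was not analysed here.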

Additional observations from a re-analysis of the deposited data

Results flagged for a closer look

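In 3 cases 1 of the 6 lymphomas lay far from the other 5, by a gap test that chance passes in about 1 in 20 groups. ITGA4 was at 3901 reads in Boxer lymphoma 3, ITGAE at 771 reads in other-breed lymphoma 1 and ITGAV at 24.7 reads in other-breed lymphoma 1. The 28 adhesion genes examined this way share their libraries.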

How the results depend on the processing

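The number of adhesion genes that rose (17) was 11 among genes with a mean of at least 50, 29 with DESeq2, 2 with age and 10 with sex as a covariate, 11 with the other-breed lymphomas only and 28 without other-breed lymphomas 1 and 2. With 1 library left out it was 9 to 22. The number that fell (2) was 4 with sex and 2 to 3 with 1 library left out. Over all genes, 5596 calls became 1933 with age and 3060 to 5896 with 1 library left out. Between the lymphoma groups, 0 genes became 2 with a pseudocount of 5, 102 with DESeq2 and 0 to 2 with 1 library left out. Replicate numbers did not pair the samples (same-number correlations -0.136 to 0.104). With the replicate block 19 adhesion genes rose, 2 fell and 4910 genes were called.

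Some genes that did not pass changed sign. CADM1 was 0.20 with edgeR, 0.23 with DESeq2, 0.15 with Boxer lymphomas only and 0.36 without other-breed lymphomas 1 and 2. For ITGAV the values were 0.37, 0.38, 0.53 and 0.63, and -0.63 to 0.56 with 1 library left out (highest without other-breed lymphoma 1). ITGB2 was -0.10 to 0.19 with 1 library left out (lowest without control 1), -0.23 with Boxer lymphomas only and -0.15 without other-breed lymphomas 1 and 2. With age, CDH1 was -1.23, CDH13 -0.82, CDH2 -0.62 and ITGB7 -0.95. ITGB7 was -0.29 with sex, and with other-breed lymphomas only ITGB7 was -0.32 and CDH1 -0.0276. The cause was not tested. Of 780 values for 35 genes, 632 kept their direction and side of the threshold, 80 lost and 46 gained a call. All 118 values between the lymphoma groups kept theirs. Low control counts limit the precision of NCAM1, NECTIN1, CDH2, CDH5, CDH11 and PCDHB15.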

Other observations

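Some cell type markers were uneven among the lymphomas. KLRB1, a receptor of natural killer cells and some T cells, was at 6050 reads in Boxer lymphoma 2 and at 18.7 to 230 in the other 5 lymphomas. ELAVL4, an RNA-binding protein of neurons, was at 170, 232 and 299 reads in the Boxer lymphomas, 770 in other-breed lymphoma 2, and 1.18 and 15.9 in other-breed lymphomas 1 and 3, against 0 to 4.09 in controls.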
